A study of Drosophila melanogaster with 4 samples.

Results

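The genes described here encode the proteins of the large subunit of the cytoplasmic ribosome of Drosophila melanogaster. They were the protein-coding genes whose symbol is RpL or RpLP followed by a number, with or without further letters, and 48 of 13946 met this rule, counting the protein-coding genes placed on chromosomes 2, 3, 4, X or Y. A further 6 genes with RpL names carry a hyphen (RpL37-1, RpL37-2, RpL7-like, RpL22-like, RpL24-like and RpLP0-like), fall outside the rule and are given only beside their relatives. The measurement was chromatin immunoprecipitation with sequencing (ChIP-seq) of Ribbon (Rib), a nuclear BTB-domain protein that the embryo needs to lengthen its salivary gland and tracheal tubes. Both genotypes carried a UAS-rib-GFP transgene, so GFP-tagged Rib was made in addition to the embryo's own protein. It was driven by fkh-Gal4 in one genotype and by sage-Gal4 in the other, both known as drivers for the salivary gland. Machine-sorted whole embryos of stages 11 to 16, collected over 8 h and aged for 11 h, were cross-linked in 1.8% formaldehyde, and an anti-GFP antibody was used. For each driver, 3 collections were merged into 1 peak list, which gives peak positions only. The 2 input samples were not analysed here. There is thus no replicate error for any value below, the read depth is unknown, and no test between the drivers was possible. In whole embryos, a peak in more cells cannot be told apart from a stronger peak in fewer cells.

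The large ribosomal subunit joins amino acids into protein and holds the tunnel through which the new chain leaves. Its proteins are needed in nearly equal amounts by every growing cell, and their genes are among the most highly transcribed in the genome. In Drosophila many of these genes have promoters with a polypyrimidine start, read with the help of the TBP-related factor Trf2, and loss of one copy of many of them gives the Minute phenotype of slow growth and thin bristles. The salivary gland is a secretory organ with a high demand for protein synthesis.

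Most of the large subunit genes had a Rib-GFP peak with either driver. In the fkh-Gal4 list, 33 of the 48 genes had a peak within 1 kb of one of their ends (68.8%, exact 95% interval 53.7 to 81.3), where 8.55% of all protein-coding genes had one. In the sage-Gal4 list, 35 of 48 did (72.9%, 58.2 to 84.7), where 4.06% of all genes did. Both lists held a peak at 31 of the 48 genes (64.6%), against 2.94% of all genes. A peak was missing from both lists at 11 of the 48 (22.9%), against 90.3% of all genes. Intervals cover counting error only, and a gene with a peak in this sense is called bound from here on.

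Genes of the partner subunit were also often bound, while those of the mitochondrial ribosome stood near the share of all genes (8.55% and 4.06%). Of 38 small subunit genes, 24 had a fkh-Gal4 peak (63.2%) and 20 a sage-Gal4 peak (52.6%), and all 20 of the latter were among the 24. Of 47 genes for the large subunit of the mitochondrial ribosome, 2 had a fkh-Gal4 peak (4.26%) and 3 a sage-Gal4 peak (6.38%), and none had both. One of these, mRpL27, was counted through the peak at its neighbour RpL27A.

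**Figure D1:**
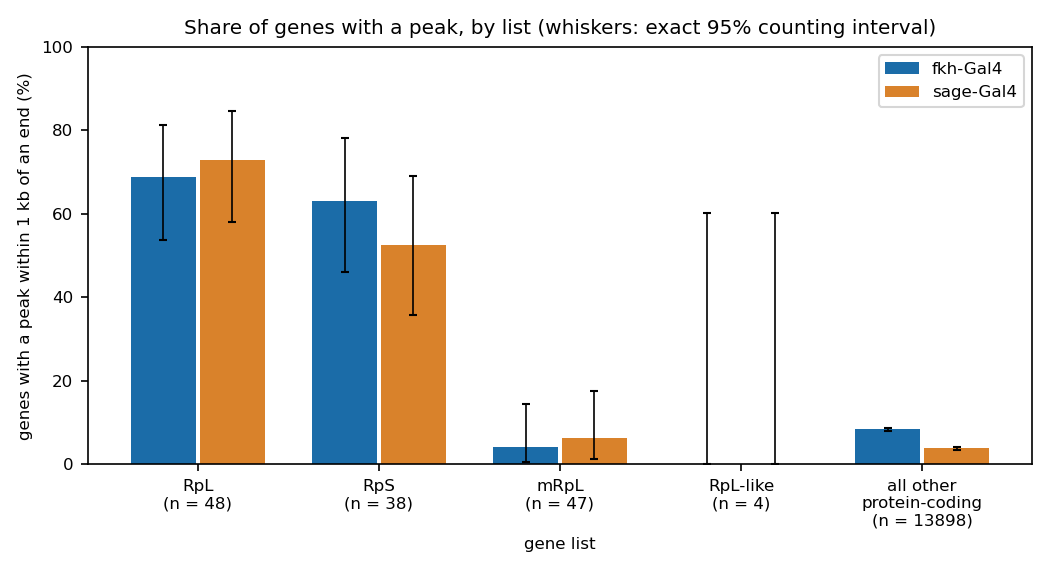
Bars give the percent of genes in each list with a peak within 1 kb of an end, for fkh-Gal4 and sage-Gal4; whiskers are exact 95% intervals for counting error. RpL genes stand at 68.8% and 72.9%, mRpL genes at 4.26% and 6.38%, and neither list has a peak at any of the 4 RpL-like genes.

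The peaks mostly sat on the gene boundary. In the fkh-Gal4 list the centre of the nearest peak lay a median of 19.5 bp from the nearer end of the gene (quartiles 12 and 37.5 over 33 genes), and the peak covered the end itself at 29 of 33 genes. In the sage-Gal4 list the median was 23 bp (quartiles 16.8 and 40 over 35 genes), and the peak covered the end at 30 of 35. A gene end lay under a peak for 60.4% of the 48 genes with fkh-Gal4 and 62.5% with sage-Gal4, against 3.41% and 1.43% of all protein-coding genes. Over the other bound genes, histone genes and neighbours counted through an RpL peak left out, the median distance was 165.5 bp for fkh-Gal4 (1015 genes) and 120.5 bp for sage-Gal4 (465 genes). A peak is counted for every gene with an end within 1 kb. These other genes thus still include neighbours of peaks that sit at a different gene, and the medians are not like for like. Small subunit genes shared the position, with medians of 21 bp over 24 genes bound with fkh-Gal4 and 21 bp over 20 bound with sage-Gal4. The gene table used here gives no strand, so the end that carries a peak cannot be named as the start or the 3′ end of the gene.

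No large subunit gene had peaks at both of its ends in either list. Where both lists held a peak, it lay at the same end at 31 of 31 genes. The centre was outside the annotated gene, RpL12 included, at 23 of 33 genes with fkh-Gal4 and at 21 of 35 with sage-Gal4. RpL8 alone had a second peak within 1 kb, an 85 bp fkh-Gal4 peak (3L, 2586589 to 2586673) centred 825 bp outside the gene and 91 bp from an end of its neighbour msn.

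**Figure D2:**
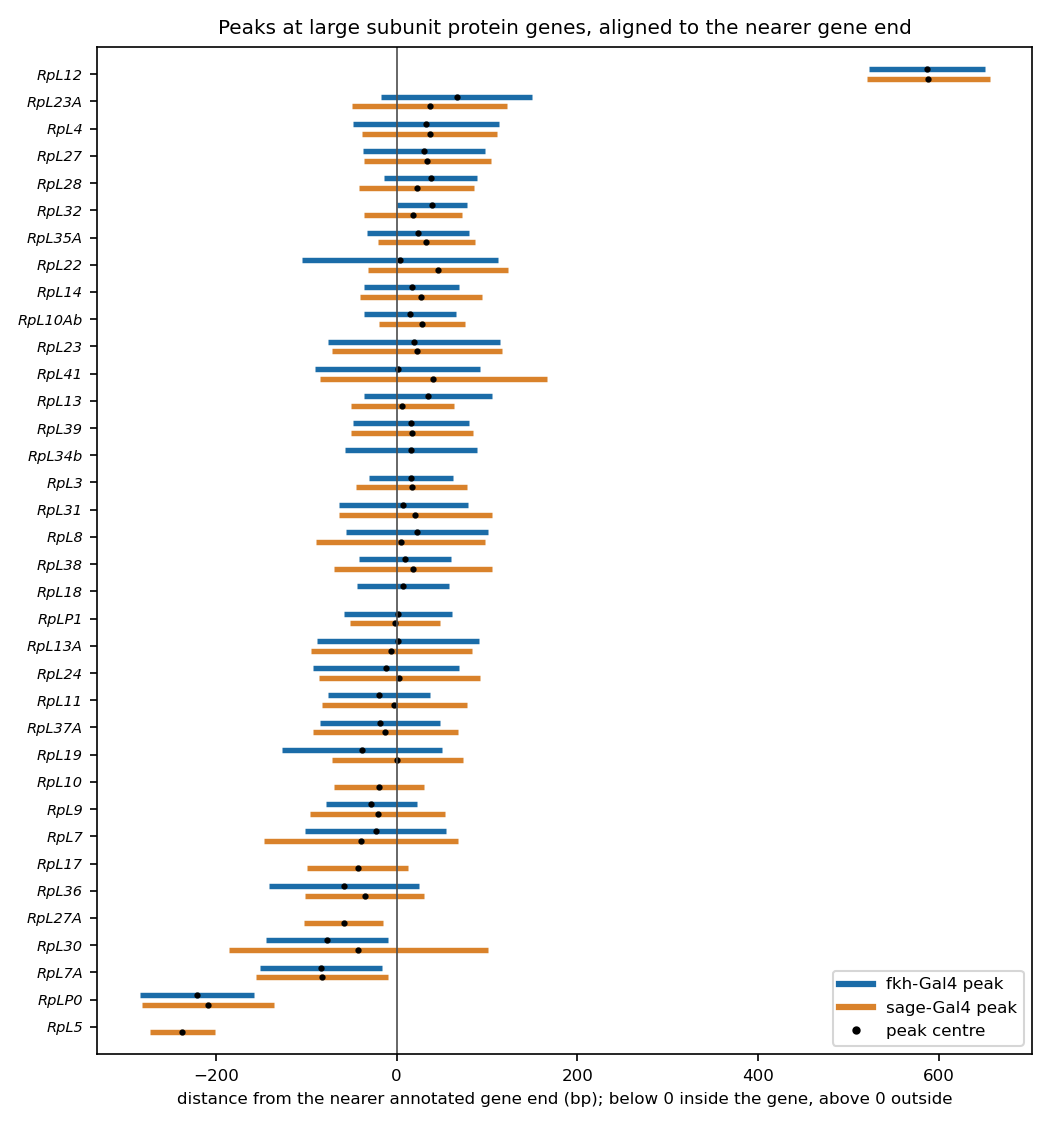
Each row is 1 of the named large subunit genes with a peak; the lines span the nearest fkh-Gal4 and sage-Gal4 peak in bp from the nearer gene end (below 0 inside the gene, above 0 outside), with dots at the centres. Nearly all lines cross 0, while those at RpLP0, RpL7A, RpL5 and RpL27A lie inside the gene, as does the fkh-Gal4 line at RpL30, and those counted for RpL12 lie 587 and 588 bp outside.

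The peaks farthest from an end belonged to few genes. RpL12, a base protein of the ribosomal stalk, was counted through peaks 587 bp (fkh-Gal4) and 588 bp (sage-Gal4) outside its annotated end. Those same peaks covered the far end of RpL39, the gene that adjoins it (2R, 24062383 to 24062511 in the fkh-Gal4 list and 24062380 to 24062516 in the sage-Gal4 list), so that RpL12 has no peak of its own in either list. RpLP0, which anchors the stalk, had its peak inside the gene, centred 221 bp from the end with fkh-Gal4 (3L, 22076025 to 22076151) and 209 bp with sage-Gal4 (22076003 to 22076149). RpL5 had a 73 bp sage-Gal4 peak inside the gene, 237 bp from the end (2L, 22536611 to 22536683). RpL7A followed, with centres 83.5 and 83 bp inside the gene (X, 6533197 to 6533332 and 6533192 to 6533338). The fkh-Gal4 centre lay 77.5 bp inside RpL30 and 66.5 bp outside RpL23A, while the sage-Gal4 centre lay 58.5 bp inside RpL27A. Nearness to the boundary was thus the rule, with RpLP0 and RpL5 the members whose own peak lay more than 100 bp away.

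By role in the ribosome, bound and unbound genes stood side by side. Among the 4 genes of the stalk, which recruits the elongation factors, RpLP0 and RpLP1 were bound in both lists, RpL12 was counted through the peak at RpL39, and RpLP2 was bound in neither. The peak at RpLP1 was 120 bp wide with fkh-Gal4 (2L, 419891 to 420010) and 101 bp with sage-Gal4 (419904 to 420004), centred 1.5 bp outside and 2 bp inside the end. RpLP1 and RpLP2 encode partner proteins of one complex, and the nearest peak to RpLP2 was 5353.5 bp away with fkh-Gal4 and 144673 bp away with sage-Gal4.

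RpL5 and RpL11 encode the proteins that bring the 5S ribosomal RNA into the subunit. RpL11 was bound with both drivers (2R, 19442305 to 19442418 and 19442264 to 19442425), and RpL5 with sage-Gal4 alone. At the peptidyl transferase centre, where the peptide bond forms, RpL3 and RpL8 were bound with both drivers and RpL10 with sage-Gal4 alone. The peak at RpL3 (3R, 11221832 to 11221925, 94 bp with fkh-Gal4; 11221816 to 11221939, 124 bp with sage-Gal4) was centred 15.5 and 16.5 bp outside the gene. That at RpL8 was 158 bp wide with fkh-Gal4 (3L, 2587355 to 2587512) and 188 bp with sage-Gal4 (2587358 to 2587545).

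Of the 3 genes whose proteins line the exit tunnel, RpL4 and RpL39 were bound with both drivers and RpL17 with sage-Gal4 alone. At RpL4 the peaks were 162 and 150 bp wide (3R, 27922708 to 27922869 and 27922710 to 27922859). Around the tunnel exit, where chaperones and the signal recognition particle dock, RpL19, RpL23A and RpL31 were bound in both lists and RpL26 and RpL35 in neither. These role groups hold 2 to 5 genes each, too few to compare their shares. The remaining 31 genes were bound at 22 with fkh-Gal4, at 21 with sage-Gal4 and at 20 with both.

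The other members bound with both drivers repeated this picture. RpL32, whose transcript (also called rp49) is a common reference in expression assays, had the narrowest fkh-Gal4 peak of the set, 79 bp (3R, 30046161 to 30046239), and a sage-Gal4 peak of 109 bp (30046125 to 30046233). RpL9 had peaks of 101 bp (2L, 11004111 to 11004211) and 151 bp (11004093 to 11004243), centred 28 and 21 bp inside the gene. RpL13A had peaks of 180 bp (3R, 5624383 to 5624562) and 179 bp (5624391 to 5624569), centred 1.5 bp outside and 6 bp inside. At each of these genes both peaks covered the gene end.

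RpL19 had peaks of 178 bp (2R, 24969420 to 24969597) and 146 bp (24969475 to 24969620), and RpL31 of 144 bp (2R, 9587114 to 9587257) and 170 bp (9587088 to 9587257). RpL23 had peaks of 191 bp (2R, 22854269 to 22854459) and 189 bp (22854266 to 22854454), whose centres lay 4 bp apart. The peaks at these 3 genes of 2R also covered the gene end with either driver.

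RpL38 is the most isolated of the bound genes, with gaps of 44327 and 30232 bp to the next protein-coding genes. It had peaks of 103 bp (2R, 4516416 to 4516518) and 175 bp (4516389 to 4516563), centred 9 and 18 bp outside its end. No other protein-coding gene has an end within 1 kb of these peaks. RpL22 likewise has a gap of 4814 bp on the side of its peak.

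Further genes bound with both drivers were RpL13, RpL14, RpL27, RpL28, RpL35A, RpL36 and RpL37A. Their fkh-Gal4 centres lay from 58 bp inside (RpL36) to 37.5 bp outside the end (RpL28). Their sage-Gal4 centres lay from 35.5 bp inside (RpL36) to 34 bp outside (RpL27). All of these peaks covered the gene end.

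The second comparison asked whether the drivers placed Rib-GFP at the same large subunit genes. Of the 33 genes bound with fkh-Gal4, 31 were also bound with sage-Gal4 (93.9%), and these were 88.6% of the 35 sage-Gal4 genes. Among all other bound genes, 379 of 1159 fkh-Gal4 genes (32.7%) were bound with sage-Gal4 too, which is 71.4% of the 531 sage-Gal4 genes. The 32.7% is limited by list length, since the fkh-Gal4 list holds 4196 peaks and the sage-Gal4 list 907. Small subunit genes also agreed between drivers, with 20 of the 24 fkh-Gal4 genes bound with sage-Gal4 too. The peaks of both lists overlapped at every one of the 31 shared large subunit genes. Their centres differed by a median of 13 bp (range 0.5 to 42), and the overlap took up a median of 97.4% of the fkh-Gal4 peak and 84.7% of the sage-Gal4 peak.

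Peak width is the only measure of size in the lists. The fkh-Gal4 peaks nearest to the bound genes were 79 to 218 bp wide with a median of 136 bp, and the whole list had a median of 122 bp. The sage-Gal4 peaks were 73 to 288 bp wide with a median of 146 bp, and the whole list had a median of 102 bp. At the 31 shared genes the sage-Gal4 peak was the wider one at 21 and the narrower at 10, with a median difference of 14 bp (sage-Gal4 minus fkh-Gal4, range -62 to 152). Counted as 30 distinct sites, since RpL12 and RpL39 share theirs, it was wider at 20. At 586 overlapping peak pairs elsewhere in the genome it was wider at 129 (22.0%), with a median difference of -73.5 bp. Among 107 of those pairs whose sage-Gal4 centre lay within 50 bp of a gene end, it was wider at 38 (35.5%), with a median difference of -12 bp. With 1 list per driver, these are descriptions of the lists and not tests.

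**Figure D3:**
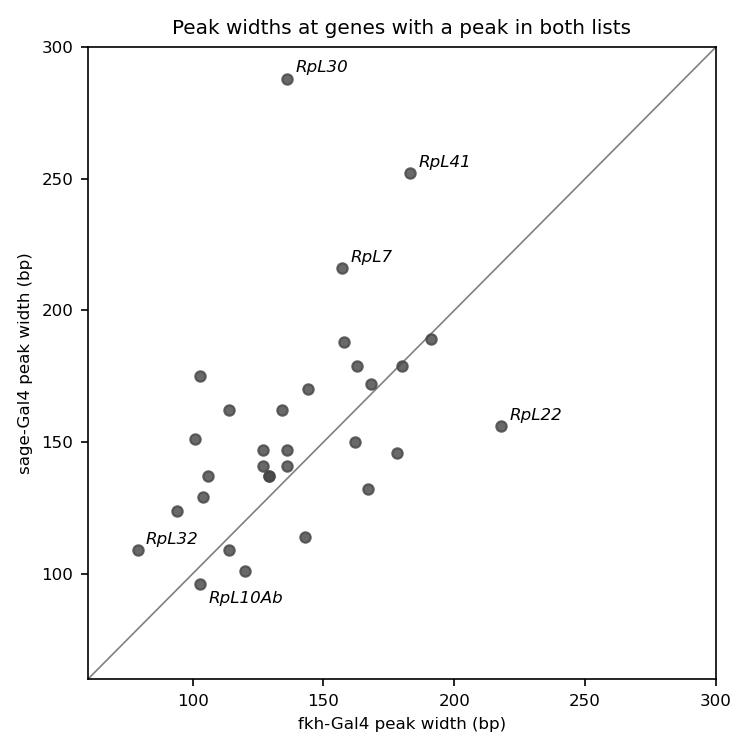
Each point is 1 of the 31 large subunit genes with a peak in both lists, placed by the width in bp of its fkh-Gal4 (x axis) and sage-Gal4 (y axis) peak; on the line the widths are equal. Of the points, 21 lie above the line, with RpL30 farthest above it at 136 and 288 bp and RpL22 farthest below it at 218 and 156 bp.

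The widest fkh-Gal4 peaks among these genes lay at RpL22 (218 bp), RpL23 (191 bp), RpL41 (183 bp), RpL13A (180 bp), RpL19 (178 bp), RpL23A (168 bp), RpL36 (167 bp) and RpL24 (163 bp). All of them were wider than the median of the whole list (122 bp) but far from its widest peak (1598 bp). The peak at RpL22 ranked 827 of 4196 by width. The widest sage-Gal4 peaks lay at RpL30 (288 bp), RpL41 (252 bp), RpL7 (216 bp), RpL23 (189 bp), RpL8 (188 bp), RpL13A and RpL24 (179 bp each) and RpL38 (175 bp). The peak at RpL30 ranked 14 of 907 in that list. It ran across the gene end (2L, 19009120 to 19009407), whereas the fkh-Gal4 peak lay wholly inside it and inside the gene (19009161 to 19009296). RpL41, which encodes one of the smallest known proteins, lies inside the sodium channel gene NaCP60E (2R, gene at 24903416 to 24903935), and its peaks (24903845 to 24904027 and 24903850 to 24904101) covered one of its own ends.

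Of the 48 genes, 2 were bound with fkh-Gal4 alone (4.17%) and 4 with sage-Gal4 alone (8.33%), where 5.61% and 1.12% of all protein-coding genes were. RpL18 had a 103 bp fkh-Gal4 peak across its end (3L, 7241307 to 7241409), and the nearest sage-Gal4 peak was 345329 bp away. RpL34b had a 147 bp fkh-Gal4 peak across its end (3R, 9401169 to 9401315), and the nearest sage-Gal4 peak was 6351.5 bp away. The sage-Gal4 peaks without a fkh-Gal4 counterpart were at RpL10 (3L, 23095402 to 23095501, 100 bp), RpL17 (X, 6744139 to 6744251, 113 bp), RpL27A (2L, 4458262 to 4458349, 88 bp) and RpL5 (73 bp). The nearest fkh-Gal4 peaks to these genes were 20582.5, 42003, 53962 and 12183 bp away, respectively. All 4 of these sage-Gal4 peaks were narrower than the median of 146 bp over the bound genes. Whether a weaker peak of the other driver fell under the authors' threshold at these 6 genes was not tested, because the lists hold no values below it.

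The 11 genes without a peak in either list were RpL6, RpL10Aa, RpL15, RpL21, RpL26, RpL29, RpL34a, RpL35, RpL36A, RpL40 and RpLP2. RpL40 is made as a fusion to ubiquitin, RpL26 and RpL35 sit at the tunnel exit, and RpL10Aa and RpL34a are copies of RpL10Ab and RpL34b. By place, RpL10Aa (3R, 15037366 to 15038149), RpL34a (3R, 26058420 to 26059267) and RpL6 (3R, 31594792 to 31596204) lie on one arm. RpL26 (3L, 18898875 to 18900408) and RpL15 (3L, 27267255 to 27268445) lie on 3L, and RpL40 (2L, 4227699 to 4228561), RpL36A (2L, 8041873 to 8042909) and RpL21 (2L, 22247111 to 22247875) on 2L. RpL29 (2R, 21293768 to 21294404), RpLP2 (2R, 16586129 to 16586732) and RpL35 (X, 5672401 to 5673547) complete the set. Unbound genes were thus found on each of the 5 major arms, and every arm also held bound ones, from 7 of 12 genes on 2L to 9 of 11 on 2R with fkh-Gal4.

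None of these 11 genes was near the 1 kb limit. The closest peaks of the 11 lay 2926.5 bp (fkh-Gal4) and 2921 bp (sage-Gal4) from RpL34a, then 4465 and 4580.5 bp from RpL35. RpL40 had a fkh-Gal4 peak 5981 bp away and a sage-Gal4 peak 116581 bp away, and RpL26 had them 7815 and 50274.5 bp away. RpL6, RpL10Aa, RpL15, RpL21, RpL29 and RpL36A had their nearest fkh-Gal4 peaks 12323 to 51549 bp away and their nearest sage-Gal4 peaks 42898 to 265128 bp away. The median distance over the 11 genes was 12323 bp for fkh-Gal4 and 50274.5 bp for sage-Gal4. On the other side of the limit, taking the nearest peak of each gene, the farthest centres were the 587 and 588 bp of RpL12, followed by 237 bp at RpL5. A window of 2 kb added no gene to either list.

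**Figure D4:**
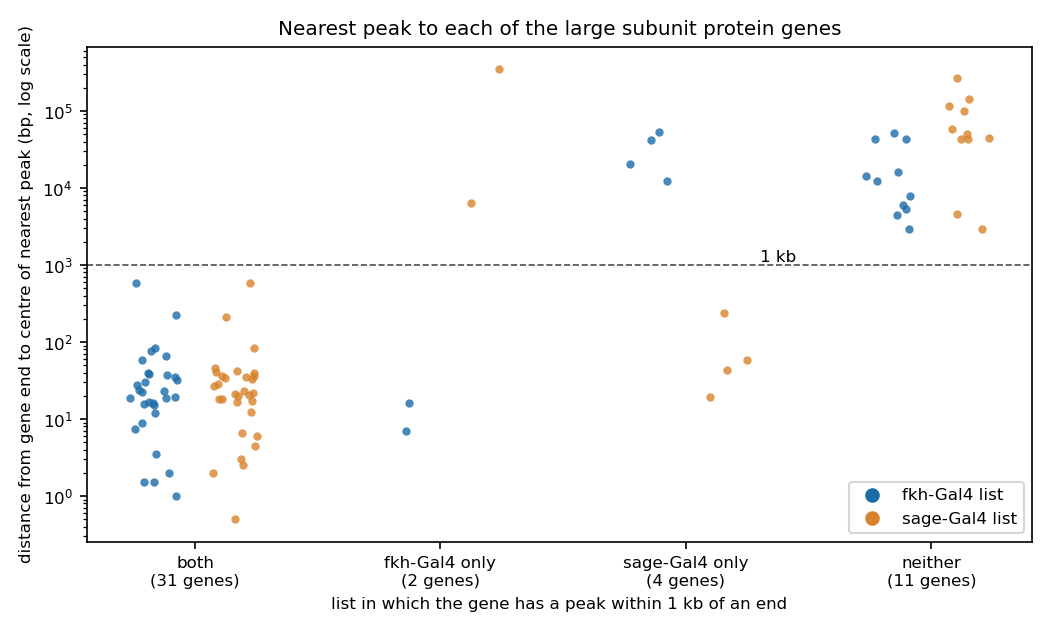
Each of the 48 large subunit genes appears as 2 points, the distance in bp (log scale) from its nearer end to the centre of the nearest fkh-Gal4 and the nearest sage-Gal4 peak, grouped by the list in which it is bound; the dashed line marks 1 kb. No point falls between 588 bp and 2921 bp.

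In each of 7 pairs of paralogues, 1 gene had a peak in at least 1 list and the other had none. The pairs were set by symbol. Paralogues can share sequence, and how reads that fit both genes were placed is not given in the labels, so a missing peak is uncertain. RpL10Ab was bound in both lists (3L, 11822785 to 11822887, 103 bp with fkh-Gal4; 11822775 to 11822870, 96 bp with sage-Gal4), and the nearest peaks to RpL10Aa were 51549 and 57748.5 bp away. RpL34b was bound with fkh-Gal4, and RpL34a in neither list. RpL37-1, outside the naming rule, had peaks of 75 bp (X, 15139334 to 15139408) and 123 bp (15139312 to 15139434) centred 4 and 6 bp from its end, while RpL37-2 had none.

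The 4 RpL-like genes had no peak in either list, while the genes they are named after were bound in both. RpL22 had peaks of 218 bp (X, 765025 to 765242) and 156 bp (765098 to 765253), and the nearest peaks to RpL22-like, known for its expression in the testis, were 42647 and 333171 bp away. RpL24 had peaks of 163 bp (2L, 13395038 to 13395200) and 179 bp (13395045 to 13395223), and those nearest to RpL24-like were 37772.5 and 37756 bp away. RpL7 had peaks of 157 bp (2L, 10200949 to 10201105) and 216 bp (10200936 to 10201151), and those nearest to RpL7-like were 9350 and 35323.5 bp away. RpLP0-like had its nearest peaks 59001.5 and 77418 bp away. Since 90.3% of all genes had no peak, the absence at 1 gene of a pair is the common state of a gene here.

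Where a gene overlapped a neighbour at 1 end, the peak mostly lay at its free end. Among the 37 bound genes, 11 overlapped another protein-coding gene at exactly 1 end, and the peak was at the other end in 10 of them (RpL10Ab, RpL18, RpL23, RpL23A, RpL24, RpL27, RpL28, RpL30, RpL31 and RpL39). The exception was RpL12, whose counted peak belongs to RpL39. Over all 37 genes the median gap to the next protein-coding gene was 308 bp at the end with the peak and 198 bp at the other end. The end with the peak had the larger gap at 22 of the 37, the 10 genes just named among them. The medians and the count of 22 include these 10 overlap cases, so they do not tell whether the other genes lean to the wider gap. This pattern was noticed in the data and has no test.

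Genes of the large subunit were short, and the unbound ones shorter still. The 48 genes had a median length of 1325.5 bp, and the other protein-coding genes 2167 bp. The median was 1428 bp for the 31 genes bound in both lists (range 520 to 3280) and 863 bp for the 11 unbound ones (range 604 to 1534), so the ranges overlap. Of the 4 genes bound with sage-Gal4 alone, RpL5 (4606 bp), RpL17 (2702 bp) and RpL10 (2282 bp) were longer than the median member and RpL27A (1179 bp) was shorter. Small nucleolar RNA genes, whose products guide the modification of ribosomal RNA, lay inside 16 of the 48 genes. Of these 16 host genes, 11 were bound with fkh-Gal4 (68.8%) and 14 with sage-Gal4 (87.5%). Of the 32 others, 22 (68.8%) and 21 (65.6%) were bound. Among the other protein-coding genes, 80 hold such an RNA gene. Of these 80, 21 were bound with fkh-Gal4 (26.25%) and 12 with sage-Gal4 (15%), where 8.55% and 4.06% of all genes were. No peak counted for a large subunit gene overlapped a small nucleolar RNA gene in either list.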

How the data were processed

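ChIP-seq peak positions of Rib-GFP were read from 1 deposited list per driver. Per the submitters' processing notes, BWA and MACS2 2.1.0.20140616 were used with the genome build dm6, and per the labels 50 bp reads of 3 collections were merged. Not given in the sources used here are the peak threshold, the filters, how reads with several map positions were handled, and whether inputs were controls. The deposited lists hold a chromosome, a start and an end and no other value, and depth is unknown.

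Starts were changed to a 1-based count. Genes came from the RefSeq gene table of the same assembly (Release 6), which has no strand and no transcript starts. A gene was called bound where a peak came within 1 kb of either of its ends, inside or outside, and distances run from the closer gene end to the centre of the peak. The gap to a neighbour is the distance to the next protein-coding gene. Peaks were called shared where they overlapped by 1 bp or more. Counts, shares, medians and exact (Clopper-Pearson) 95% intervals were computed in Python 3.11.15 with pandas 2.3.3 and scipy 1.17.1, and the assignment of peaks to genes was checked on simulated peaks. No test was run, since each driver has 1 list.

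The members, gene lists and comparisons were chosen with earlier results of these data known, and the role groups, the neighbour gaps and the lengths after the values were seen. The named genes are all members without a peak or with a peak in 1 list, both genes of each paralogue pair, the 8 widest peaks and the 5 farthest centres of each list, and members with several peaks or with a peak that reaches a neighbour's end. Others are named as examples of a role. One member is counted in the totals and not reported by name here. Alternatives were windows of 0 bp, 500 bp and 2 kb, the wider peaks of each list (at or above the median width), merging within 500 bp, the nearest gene end alone, the extended gene body, a fkh-Gal4 list cut to its 907 widest peaks, a reciprocal overlap of 50% and centres within 200 bp. A planned motif search and a protein comparison were not run, because no sequence was used here.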

Additional observations from a re-analysis of the deposited data

How the results depend on the processing

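Of 42 alternative values, 38 were labelled as the same as the main value, which for counts meant within 1.5 times. This limit is loose. With the wider peaks alone, falls from 33 to 22 genes (fkh-Gal4) and from 31 to 21 (both lists) still passed it. The limit is for counts only, so the alternative distance medians are given by value. They were 19.25 to 22.75 bp for fkh-Gal4 (main value 19.5) and 22.5 to 23 bp for sage-Gal4 (main value 23). The count of 33 genes bound with fkh-Gal4 ran from 29 (end under the peak) to 33 with every window, and was 22 with the wider peaks alone; the 35 sage-Gal4 genes ran from 30 to 35. Giving each peak to its nearest gene end, or a window of 500 bp, removed 1 gene from each list, RpL12. With the wider peaks alone, 17 genes were bound in neither list in place of 11, and 69.0% of the sage-Gal4 peaks at these genes overlapped a fkh-Gal4 peak in place of 88.2%; fewer peaks enter that setting. With the fkh-Gal4 list cut to its 907 widest peaks, 1 gene, RpL22, was bound with fkh-Gal4 and 1 in both lists (2.08% of the 48 genes against 1.56% and 0.538% of all genes), since nearly all peaks at these genes are narrower than that limit. Width is not known to follow peak strength. Depth and weaker peaks cannot be judged from the lists. No paired analysis was possible because each driver has 1 merged list.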

Other observations

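Short gaps between genes put 36 other protein-coding genes within 1 kb of a large subunit gene's peak and of no other peak in at least 1 list (33 with fkh-Gal4, 32 with sage-Gal4 and 29 in both). They made up 2.85% of the other genes bound with fkh-Gal4 and 6.03% of those bound with sage-Gal4. Those named here were picked from them after their values were seen. Dref, a factor that binds the DNA replication-related element of many housekeeping promoters, lies 83 bp from RpL13. The fkh-Gal4 peak between them covered an end of both genes (2L, 9967207 to 9967349), and the sage-Gal4 peak covered that of RpL13 alone (9967250 to 9967363). Ripalpha lies 29 bp from RpL7, and the RpL7 peaks of both lists covered its end. Further such neighbours were Spt5, an elongation factor beside RpL11 (463.5 and 446.5 bp from the peak centres), Nelf-E, a subunit of the negative elongation factor beside RpL14 (110.5 and 100 bp), and eIF1, an initiation factor beside RpL28 (343.5 and 359 bp).

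Genes for promoter factors and for ribosome assembly were bound at 3 of 20 with fkh-Gal4 (Dref, Myc and Trf2) and at 2 of 20 with sage-Gal4 (Dref and Trf2), where 8.55% and 4.06% of all genes were bound. Trf2 had peaks of its own at its end (X, 8409228 to 8409350, 123 bp with fkh-Gal4; 8409218 to 8409274, 57 bp with sage-Gal4), centred 17 and 26 bp from it. Myc, a driver of ribosome production, had a 110 bp fkh-Gal4 peak (X, 3373102 to 3373211) centred 2.5 bp from its end. M1BP, Tbp, the nucleolar genes Fib and Nop56 and the RNA polymerase I genes Polr1A and Polr1B had none in either list.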
